A study of Homo sapiens with 8 samples.

Results

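The transcriptomes of HT29 cells given YB-0158 and of HT29 cells given ICG-001 were set against each other directly, gene by gene. HT29 is an established human colorectal adenocarcinoma line. The 4 libraries of this comparison were taken by title from the 8 libraries of the study: 2 from cells given YB-0158 at 0.3 µM and 2 from cells given ICG-001 at 10 µM. The other 4 libraries, 2 with the DMSO vehicle at 0.1% and 2 with CWP232228 at 1.5 µM, took no part in the contrast and are used for reference levels and to pick genes. The labels give 48 h for every library except replicate 2 of ICG-001 and replicate 2 of CWP232228, which are given 49 h. Because the doses of YB-0158 and ICG-001 differ, an effect of the compound and an effect of the dose cannot be told apart, and no difference below is one at a matched dose. No genotype change is labelled in any group, and all libraries are of 1 cell line. The labels do not state that replicates are separate cultures, and a p-value here measures the spread between libraries, part of which may be technical.

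The series describes these compounds as reverse-turn peptidomimetics. ICG-001 is known as a small molecule that binds CREBBP, the histone acetyltransferase that beta-catenin recruits to Wnt target genes. It is also known as a ligand of KHDRBS1 (SAM68), an RNA-binding protein. In colorectal epithelium, Wnt signalling through beta-catenin keeps stem and progenitor cells dividing, and HT29 cells carry a truncated APC protein that leaves this pathway active.

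Estimated read counts were summed per gene, and the level of a gene is given in CPM, its count scaled to the size of the library. A log2 difference is YB-0158 minus ICG-001, so a value above 0 means a higher level with YB-0158. A gene was called when its p-value from edgeR's quasi-likelihood test, adjusted by the Benjamini-Hochberg method over all 16478 genes tested, was under 0.05. Agreement was read from the other side, as a 95% interval of the difference that lay wholly within 1.5-fold in either direction (0.58 on the log2 scale). The 4 libraries held 55020460 and 43395915 reads for ICG-001 and 58489118 and 39964987 reads for YB-0158. The cells carried the markers of their labelled type. All 11 colorectal epithelial markers stood above 1 CPM in the 4 libraries, from GPA33 at 1.99 to 3.33 CPM to KRT8 at 5784 to 6898 CPM. Of these 11, 7 were higher and 4 lower with YB-0158, and 7 had an unadjusted p under 0.05 (12.7% of all genes). None was called in the main edgeR fit, while DESeq2 called 4 (1.38% of all genes). A term for the replicate number gave 7 calls (7.83%), and so did offsets for GC content and length (3.65%). PTPRC and CD3E, which define leukocytes, CDH5 and KDR, which define endothelium, and the fibroblast genes COL1A2 and PDGFRA were at 0 in all 4 libraries. Below 1 CPM in all 4 were 8 of 10 fibroblast, 6 of 10 leukocyte and 9 of 10 endothelial markers, and no member of these lists was called. The others were LUM (3.07 to 3.77 CPM) and COL1A1 (1.13 to 2.19 CPM), CD14, CD68 and ITGAM (1.01 to 5.53 CPM), LYZ (2504 to 2686 CPM) and ESAM (90.1 to 101 CPM). Summed levels were 4.44 to 6.29 CPM for fibroblast, 2511 to 2693 CPM for leukocyte and 91.9 to 103 CPM for endothelial markers, and their part in the results was not tested.

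The transcriptomes with YB-0158 and with ICG-001 were close to each other. For 11648 of the 16478 genes (70.7%) the interval of the difference lay within 1.5-fold. In a fit of the 13368 genes with a mean of at least 1 CPM the share was 87.8%, so it depends on level. The point estimate lay within 1.5-fold for 94.7% of genes, and the median size of the difference was 0.10 on the log2 scale. Only 34 genes were called (0.206%), 17 higher with YB-0158 (0.103%) and 17 lower (0.103%), while 2091 genes (12.7%) had an unadjusted p under 0.05. This count rested on the method: DESeq2 called 227 genes (1.38%), and other settings called from 0 to 1586. For comparison with the same test, 6088 of 15984 genes (38.1%) were called with ICG-001 against DMSO and 5153 of 15860 (32.5%) with YB-0158 against DMSO, comparisons that share the 2 DMSO libraries. In bulk RNA, fewer cells with a transcript and less of it per cell cannot be told apart.

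The agreement was measured against the replicate spread. Over the 8562 genes whose mean reached 4 log2 CPM, the log2 difference between replicates had an SD of 0.12 with ICG-001 and 0.11 with YB-0158. The difference between the group means had an SD of 0.12, where the replicate spread alone would give 0.083. That value takes the replicate differences of the compounds as independent, but they correlated across genes (0.52). A part shared by replicate number would cancel between the groups, so 0.083 may be too high. Groups that do not overlap were common here: in 7465 genes (45.3%) both libraries of 1 compound lay above both of the other, and a gap of that kind says little without its test. Of the 11360 genes whose mean reached 2 log2 CPM, 10 differed by at least 1 on the log2 scale in either direction. The difference rose with the GC content of the gene (Spearman rho 0.25 across genes), and so did the difference between replicates of 1 compound (0.78 for ICG-001 and 0.55 for YB-0158). Genes within a library are not independent replicates. With offsets for GC content and length in the fit, the 34 called genes were all called in the same direction.

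**Figure D1:**
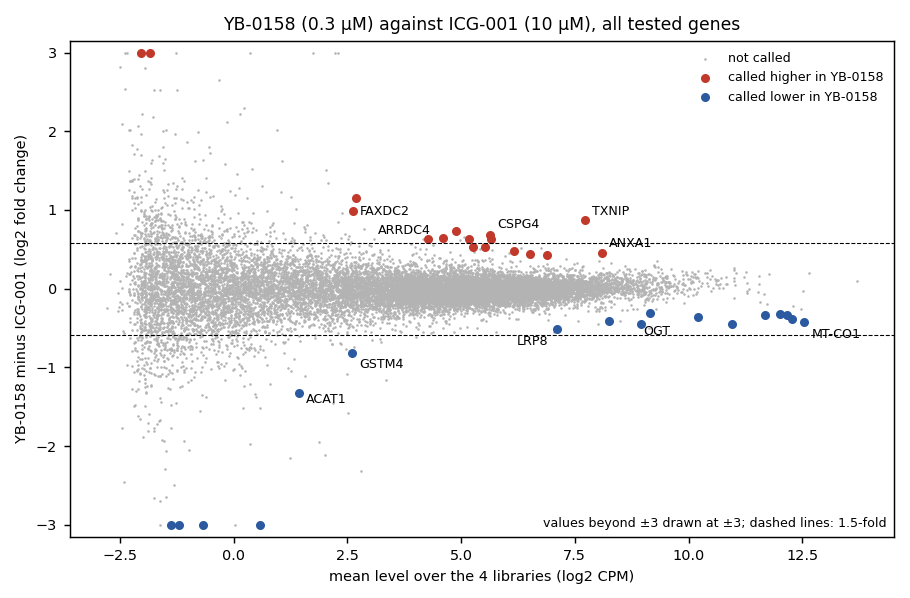
Each point is 1 of the 16478 genes tested, with its mean level over the 4 libraries on the x axis (log2 CPM) and the YB-0158 minus ICG-001 log2 fold change on the y axis. The 34 called genes are coloured, values beyond 3 are drawn at 3, and 94.7% of points lie between the dashed lines at 1.5-fold; the called genes at the right lower edge are transcripts of the mitochondrial genome.

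The number of calls depended on single libraries and on the fit. Offsets for GC content and length gave 602 calls (341 higher, 261 lower), and offsets for effective length gave 0, with 1425 at unadjusted p under 0.05. A term for the replicate number gave 1291 calls (563 higher, 728 lower). Without replicate 1 or replicate 2 of YB-0158 the test called 186 and 553 genes. Without replicate 1 or replicate 2 of ICG-001, the latter the library given 49 h, it called 33 and 59, and 18 and 9 of the 34 were no longer called; no call was lost without either YB-0158 library. In a fit of all 8 libraries, which share 1 estimate of the spread, TXNIP alone was called (adjusted p = 0.0357, edgeR). The 34 genes kept their direction under every alternative that tested them. As none of them overlapped between the groups and the alternatives refit the same counts, this was all but fixed in advance.

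Among called genes detected in both groups, TXNIP had the smallest adjusted p. It encodes an alpha-arrestin that binds thioredoxin and restrains glucose uptake. TXNIP (chromosome 1, 145992435 to 145996600, GRCh38) stood at 139 and 159 CPM with ICG-001 and at 274 and 270 CPM with YB-0158. The DMSO libraries, at 192 and 190 CPM, lay between them, so the compounds moved TXNIP to opposite sides of the vehicle. The difference was 0.87 ± 0.06 (SE, 95% interval 0.72 to 1.01, adjusted p = 0.00323, edgeR's quasi-likelihood test). Against DMSO it was -0.35 with ICG-001 (adjusted p = 0.0312) and 0.53 with YB-0158 (adjusted p = 0.00739), each in an edgeR fit of its own 4 libraries. CWP232228 gave 122 and 117 CPM, on the side of ICG-001.

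ARRDC4, the closest relative of TXNIP among the arrestins, was also higher with YB-0158. It lies on chromosome 15, 97960698 to 97973838. Its levels were 17.8 and 20.1 CPM with ICG-001 and 29.1 and 30.1 CPM with YB-0158, above the 13.7 and 10.3 CPM of DMSO in both cases. Relative to DMSO, ARRDC4 was thus higher with ICG-001 (0.67, adjusted p = 0.0206, edgeR), where TXNIP was lower. The difference was 0.64 ± 0.08 (SE, adjusted p = 0.0242, edgeR), and without replicate 1 of ICG-001 its adjusted p was 0.0762. TXNIP and ARRDC4 are textbook targets of MondoA, a glucose-sensing transcription factor that acts with MLX at carbohydrate response elements, which are pairs of E-box-like sequences a short distance apart.

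Because TXNIP and ARRDC4 were both higher with YB-0158, the contrast that picked them, their promoters are shown, from 250 bases before to 50 bases after the start annotated by RefSeq on GRCh38.p14. TXNIP covers chr1:145996530-145996829 on the minus strand and ARRDC4 chr15:97960453-97960752 on the plus strand. Capitals mark matches of CACGNG on either strand, read 5′ to 3′ along the gene.
TXNIP: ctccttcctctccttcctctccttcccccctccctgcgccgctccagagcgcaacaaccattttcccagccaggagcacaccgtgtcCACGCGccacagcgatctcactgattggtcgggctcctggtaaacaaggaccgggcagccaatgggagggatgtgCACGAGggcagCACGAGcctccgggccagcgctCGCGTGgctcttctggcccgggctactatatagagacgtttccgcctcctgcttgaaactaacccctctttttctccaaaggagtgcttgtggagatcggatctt
ARRDC4: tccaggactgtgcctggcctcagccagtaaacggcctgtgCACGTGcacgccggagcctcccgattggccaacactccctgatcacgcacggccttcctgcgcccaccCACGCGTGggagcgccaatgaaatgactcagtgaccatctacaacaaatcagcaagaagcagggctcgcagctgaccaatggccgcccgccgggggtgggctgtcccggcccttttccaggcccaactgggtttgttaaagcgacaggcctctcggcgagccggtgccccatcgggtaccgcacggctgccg
The TXNIP window held 4 matches, beginning 163, 88, 77 and 55 bases before the start. The ones at 88 and 77 bases form the spaced pair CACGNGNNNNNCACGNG. The ARRDC4 window held 3 matches, beginning 210, 142 and 140 bases before the start, of which the last 2 overlap and the first is the E-box CACGTG. The spaced pair had 0 matches in the ARRDC4 window. Of 35116 RefSeq promoter windows of this length, 10705 (30.5%) held CACGNG, 2548 (7.26%) CACGTG and 20 (0.057%) the spaced pair. A match is a string of letters and shows no binding.

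Other genes higher with YB-0158 had been lowered by both compounds, further by ICG-001. CSPG4, a cell-surface chondroitin sulfate proteoglycan (chromosome 15, 75674322 to 75712848), was at 37.5 and 38.6 CPM with ICG-001 and 61.4 and 60.4 CPM with YB-0158, where DMSO gave 247 and 279 CPM. Both compounds were thus well below the vehicle. Its difference was 0.68 ± 0.06 (SE, adjusted p = 0.0091, edgeR), against -2.79 for ICG-001 and -2.10 for YB-0158 relative to DMSO.

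FAXDC2, a member of the fatty acid hydroxylase superfamily, followed the same order, with 4.10 and 4.04 CPM for ICG-001, 8.06 and 8.09 CPM for YB-0158 and 11.8 and 13.3 CPM for DMSO (0.99 ± 0.11, adjusted p = 0.0216, edgeR). So did TPPP3, a tubulin-binding protein (0.73 ± 0.09), and COL9A3, a collagen IX chain (0.53 ± 0.07). Without replicate 1 of ICG-001, the adjusted p (edgeR) was 0.0698 for FAXDC2 and 0.108 for TPPP3, and without its replicate 2 it was 0.0642 for TPPP3. EEF1A2, a translation elongation factor, was 0.63 ± 0.07 higher with YB-0158, at 59.4 and 63.6 CPM against 41.3 and 37.9 CPM. Its DMSO libraries lay at 69.2 and 98.9 CPM, and YB-0158 did not pass the test against them (adjusted p = 0.107, edgeR).

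A further set was higher with YB-0158 than with both ICG-001 and DMSO. AKAP12, a scaffold that anchors protein kinase A (chromosome 6, 151239999 to 151358557), was at 29.4 and 26.9 CPM with ICG-001 and 44.8 and 42.7 CPM with YB-0158, from 14.2 and 11.3 CPM with DMSO. CREB3L2, a transcription factor held in the endoplasmic reticulum membrane, stood at 32.3 and 30.7 CPM against 44.8 and 45.8 CPM, from 24.7 and 18.9 CPM. SAT1, which acetylates spermidine and spermine, stood at 57.5 and 61.8 CPM with ICG-001, level with the 56.9 and 62.2 CPM of DMSO, and at 81.1 and 85.6 CPM with YB-0158. The differences between the compounds were 0.64 ± 0.07 for AKAP12, 0.52 ± 0.07 for CREB3L2 and 0.48 ± 0.06 for SAT1, with adjusted p from 0.0216 to 0.0267 (edgeR). SAT1 was at 0.0713 without replicate 1 of ICG-001, and CREB3L2 at 0.059 without its replicate 2. TMSB4XP6, a processed pseudogene of thymosin beta 4, was called as well (0.63 ± 0.09), but it shares sequence with its parent gene and its value is uncertain. Its adjusted p was 0.0984 and 0.0829 without replicate 1 or 2 of ICG-001 (edgeR).

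Further called genes that were higher with YB-0158 lie outside the naming rule given with the methods and were chosen after their values were seen. ANXA1, a calcium-dependent phospholipid-binding protein, stood at 223 and 236 CPM with ICG-001 and at 311 and 317 CPM with YB-0158 (0.45 ± 0.05, adjusted p = 0.0187, edgeR). MMP7, the secreted protease matrilysin, stood at 77.1 and 78.1 CPM against 101 and 109 CPM (0.44 ± 0.06, adjusted p = 0.0713 in edgeR without replicate 1 of ICG-001). SOX4, a transcription factor of progenitor cells, stood at 102 and 101 CPM against 138 and 135 CPM (0.43 ± 0.05). For MMP7 and SOX4 the YB-0158 libraries did not pass the test against DMSO, with adjusted p of 0.688 and 0.142 (edgeR). The pseudogene SEPTIN14P5 was called from counts of 0 in both ICG-001 libraries and 22 and 17 in the YB-0158 libraries. Against the floor of 3 counts per library it was at least 6.48-fold higher with YB-0158. That bound covers counting error only, and SEPTIN14P5 itself stood at 0.488 and 0 CPM in the 2 CWP232228 libraries. Its adjusted p was 0.12 and 0.0793 without replicate 1 or 2 of ICG-001 (edgeR).

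**Figure D2:**
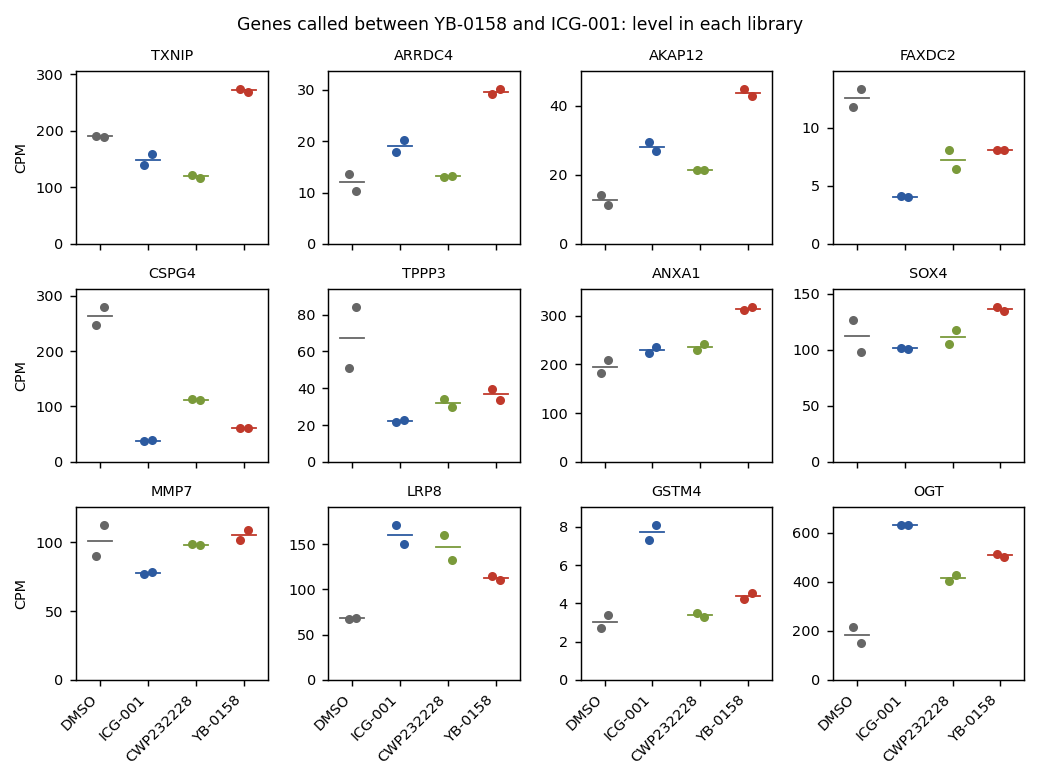
Each panel gives the CPM of 1 called gene in all 8 libraries, with a point per library and a bar at the mean of 2 libraries for DMSO, ICG-001, CWP232228 and YB-0158. TXNIP with YB-0158, at 274 and 270 CPM, lies above every other library, while CSPG4 and FAXDC2 are lowest with ICG-001 and highest with DMSO.

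The genes lower with YB-0158 were led by transcripts of the mitochondrial genome, which encodes subunits of the respiratory chain and its own ribosomal RNAs. All 13 mitochondrial mRNAs were tested, all 13 were lower with YB-0158 and 7 were called, against 0.103% of all genes. Their median difference was -0.33, against -0.01 over all genes, and 10 of the 13 still had an interval within 1.5-fold. DESeq2 called 12 of the 13. In the edgeR fit of the 6 compound libraries, MT-CO1 and MT-ND4L alone of the 7 stayed called, and the others had adjusted p from 0.0536 to 0.0828. In the fit of all 8 libraries none of the 7 was called. MT-CO1, the catalytic subunit of cytochrome c oxidase (chromosome MT, 5904 to 7445), stood at 6933 and 6694 CPM with ICG-001 and at 5067 and 5103 CPM with YB-0158. DMSO gave 2011 and 3195 CPM, so both compounds were above the vehicle and ICG-001 was the higher. The difference was -0.42 ± 0.04 (SE, adjusted p = 0.0187, edgeR).

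MT-ATP6, a subunit of the ATP synthase proton channel, stood at 5450 and 5704 CPM with ICG-001 and 4183 and 4345 CPM with YB-0158 (-0.39 ± 0.05, adjusted p = 0.0216, edgeR). MT-ND4, a complex I subunit, stood at 5079 and 5189 CPM against 4072 and 4072 CPM (-0.33 ± 0.04, adjusted p = 0.0242). The other called mRNAs were those of the complex I subunits MT-ND1 (-0.33), MT-ND4L (-0.45) and MT-ND5 (-0.36) and of the oxidase subunit MT-CO2 (-0.33). MT-ND4L and MT-ND4 overlap on 1 transcript, so they are not separate observations. All 13 mRNAs come from the same mitochondrial genome, and they need not be separate observations either. Without replicate 1 of ICG-001 the adjusted p (edgeR) was 0.0698 for MT-ND1, 0.153 for MT-ND4L and 0.053 for MT-ND5, and without its replicate 2 it was 0.126 for MT-ND4L. The 6 mRNAs not called lay between -0.70 for MT-ND6 and -0.19 for MT-CYB.

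MT-RNR2, the large mitochondrial ribosomal RNA, was lower too, at 2272 and 2280 CPM against 1614 and 1711 CPM (-0.45 ± 0.05, adjusted p = 0.0187, edgeR). All genes of the mitochondrial genome together took 4.61% and 4.57% of the reads with ICG-001 and 3.62% and 3.69% with YB-0158, where DMSO gave 1.04% and 1.62%. The 46 nuclear genes of oxidative phosphorylation did not share the shift: their median was 0.04, and the interval of each of the 46 lay within 1.5-fold. None of the 46 was called in the main edgeR fit or by DESeq2, and 7 had an unadjusted p under 0.05, as did 12.7% of all genes. With a replicate term edgeR called 4 and with GC and length offsets 1, where all genes gave 7.83% and 3.65%.

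**Figure D3:**
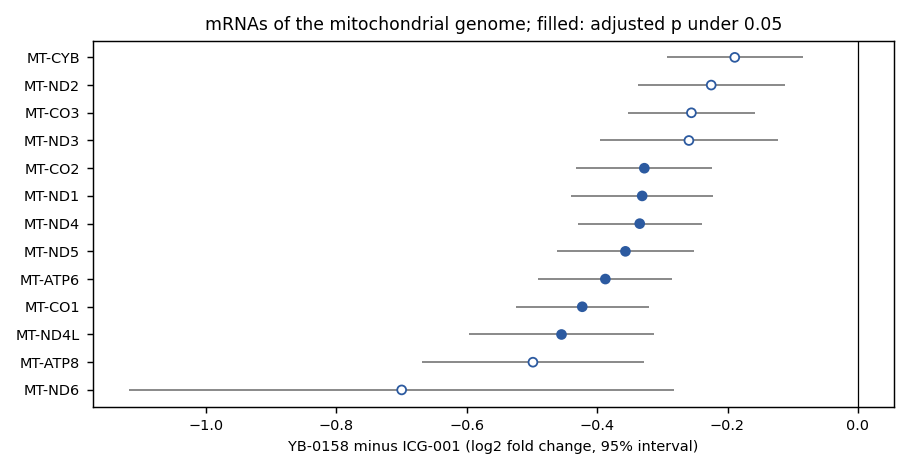
The points are the YB-0158 minus ICG-001 log2 fold changes of the 13 mitochondrial mRNAs and the bars their 95% intervals; filled points have an adjusted p under 0.05. All 13 points lie below 0, from -0.70 for MT-ND6 to -0.19 for MT-CYB.

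Among nuclear genes, 4 whose mean reached 2 log2 CPM were called lower with YB-0158. GSTM4, a mu-class glutathione transferase (chromosome 1, 109656081 to 109674836), stood at 7.33 and 8.09 CPM with ICG-001 and at 4.23 and 4.51 CPM with YB-0158, from 2.69 and 3.38 CPM with DMSO. Its difference was -0.82 ± 0.12 (adjusted p = 0.0472, edgeR), and without replicate 1 or 2 of ICG-001 the adjusted p was 0.0984 and 0.121. LRP8, the receptor for apolipoprotein E and reelin (chromosome 1, 53242364 to 53328070), stood at 171 and 149 CPM against 115 and 110 CPM, from 67.3 and 68.4 CPM (-0.51 ± 0.07, adjusted p = 0.0484, or 0.0633 without replicate 1 of ICG-001). The gene sum of LRP8 held 0.599 of the mean given by the authors' deposited tables, so its level here is uncertain. The FPKM of LRP8 in the authors' deposited tables were 79.1 and 73.4 with ICG-001 and 56.8 and 52.0 with YB-0158.

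OGT, which attaches O-linked N-acetylglucosamine to proteins (chromosome X, 71533083 to 71575897), stood at 631 and 630 CPM with ICG-001 and at 515 and 500 CPM with YB-0158. DMSO gave 215 and 152 CPM, so OGT was above the vehicle with both compounds, and further with ICG-001 (-0.31 ± 0.05, adjusted p = 0.0484, edgeR). ERMP1, a metallopeptidase of the endoplasmic reticulum, was at 327 and 360 CPM against 250 and 269 CPM, from 194 and 143 CPM (-0.41 ± 0.06, adjusted p = 0.0496). Without replicate 1 of ICG-001 the adjusted p of OGT was 0.0769, and without its replicate 2 that of ERMP1 was 0.0696 (edgeR). For GSTM4, LRP8, OGT and ERMP1, YB-0158 lay between DMSO and ICG-001.

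The other 5 calls in this direction rest on few or unevenly assigned reads. HERC2P5 (a pseudogene), DNAAF4-CCPG1 (a readthrough), AC012476.1 and ENSG00000264187 had a count of 0 in both YB-0158 libraries and were at least 12.1-fold, 44.7-fold, 10.4-fold and 18-fold higher with ICG-001. Salmon divides reads among overlapping transcripts by a model, and these features share sequence or exons with other genes, so their values are uncertain. The bounds cover counting error only, and a 0 also occurred in 1 of the 2 CWP232228 libraries for all but HERC2P5. These libraries held 2.47 and 0 CPM for DNAAF4-CCPG1, 0.619 and 0 for ENSG00000264187 and 0 and 0.294 for AC012476.1. HERC2P5 stood at 0.619 and 0.914 CPM there. Without replicate 1 of ICG-001 the adjusted p (edgeR) was 0.0698 for HERC2P5, 0.0984 for AC012476.1 and 0.0713 for ACAT1, and without its replicate 2 it was 0.0793 for ACAT1. ACAT1, the mitochondrial acetoacetyl-CoA thiolase, fell by 1.32 from 3.55 and 4.07 CPM to 1.42 and 1.63 CPM. Its gene sum, however, held 0.101 of the mean given by the authors' deposited tables, and the FPKM there were 30.5 and 31.6 with ICG-001 and 23.2 and 29.8 with YB-0158, a far smaller gap. Setting aside genes at 0 in a group and genes under 50% of the authors' mean left 27 of the 34 calls. In the authors' deposited FPKM, 33 of the 34 called genes were listed, and all 33 differed in the same direction with no overlap between groups. These FPKM come from the same libraries, in which no called gene overlapped in CPM either, so this is not an independent check.

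The response genes of this compound class were compared next. As context, the integrated stress response genes that ATF4 drives, which raise amino acid synthesis and transport when translation initiation is restrained, had a median of 1.79 on the log2 scale with ICG-001 and 1.72 with YB-0158 relative to DMSO. Between the compounds, 24 of the 27 tested had an interval within 1.5-fold. The share was 70.7% of all genes, and 87.8% in the fit of genes with a mean of at least 1 CPM. The median of the 27 was -0.10. It was -0.06 without replicate 1 of YB-0158. None was called in the main edgeR fit, 9 had an unadjusted p under 0.05, and DESeq2 called 1, where all genes gave 12.7% and 1.38%. With a replicate term edgeR called 9 and with GC and length offsets 6, where all genes gave 7.83% and 3.65%. ASNS, which makes asparagine, stood at 401 and 447 CPM with ICG-001 and 367 and 416 CPM with YB-0158, where DMSO gave 66.6 and 69.3 CPM. Its difference of -0.11 had an interval from -0.28 to 0.05.

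PSAT1, an enzyme of serine synthesis, stood at 537 and 574 CPM against 465 and 497 CPM (interval -0.33 to -0.09). CHAC1, which degrades glutathione, stood at 88.2 and 79.6 CPM against 77.6 and 73.0 CPM (interval -0.31 to 0.00). SLC6A9, the glycine transporter GLYT1, stood at 49.0 and 45.7 CPM against 46.0 and 44.9 CPM, from 1.50 and 1.74 CPM with DMSO (interval -0.21 to 0.09). All 3 intervals lie within 1.5-fold, and none of these genes was called. The members with wider intervals were CEBPG, FGF21 and INHBE, the last 2 at 0.306 to 3.11 CPM.

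In 9 lists every tested member was within 1.5-fold, among them the 46 nuclear genes of oxidative phosphorylation and the genes of ribosome biogenesis, the proteasome, the lysosome and splicing regulators. The others were 20 of 20 aminoacyl-tRNA synthetases, 17 of 17 cytosolic heat shock genes, 22 of 22 glycolysis genes and 53 of 53 cytosolic ribosomal proteins, against 70.7% of all genes. In the fit of genes with a mean of at least 1 CPM the share was 87.8%. IARS1 and EPRS1, which charge isoleucine, and glutamate and proline, onto tRNA, differed by -0.05 (interval -0.16 to 0.06) and -0.12 (-0.23 to 0.00). The chaperones HSPA8 and HSP90AB1 differed by -0.06 (-0.16 to 0.04) and 0.01 (-0.09 to 0.11). The glycolytic enzymes GAPDH and PKM differed by -0.05 (-0.15 to 0.05) and 0.00 (-0.10 to 0.10), with GAPDH at 2988 and 3027 CPM with ICG-001 and 2895 and 2920 CPM with YB-0158.

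The ribosomal protein genes were within 1.5-fold and yet all on 1 side. All 53 lay above 0, with a median of 0.15 against -0.01 over all genes, of which 48.3% lay above 0. None was called in the main edgeR fit, 39 had an unadjusted p under 0.05 (12.7% of all genes did), and DESeq2 called 12 (1.38% of all genes). A replicate term in the edgeR fit gave 24 calls (7.83% of all genes), and GC and length offsets gave 10 (3.65%). RPL4 stood at 2743 and 2912 CPM with ICG-001 and 3193 and 3147 CPM with YB-0158 (0.16, interval 0.06 to 0.27), and RPLP0 at 2922 and 2942 CPM against 3108 and 2983 CPM (0.05, -0.05 to 0.16). DMSO was higher than both for RPL4, at 3389 and 4146 CPM. The median stayed above 0 under every alternative, from 0.11 with offsets for GC content and length to 0.18 without replicate 2 of ICG-001.

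Groups with called members were few. Of the 34 gene lists with at least 5 tested members, only the mitochondrial mRNAs and the hypoxia response list had any. In the latter the 2 called members of 19 were TXNIP and ARRDC4, whose best known regulator is glucose-responsive, against 0.206% of all genes called. CA9, the hypoxia-induced carbonic anhydrase, stood at 23.4 and 25.8 CPM with ICG-001 and 30.6 and 28.1 CPM with YB-0158 (0.26, adjusted p = 0.251, edgeR), where DMSO gave 136 and 208 CPM. The list's median was -0.04, on the other side of 0 from its called members. With DESeq2, or with GC offsets or a replicate term in the fit, other lists gained called members.

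The 42 genes of G1/S and DNA replication had a median of -0.10, with 36 below 0 and 39 within 1.5-fold. The median was -0.04 without replicate 1 of YB-0158 and -0.15 without its replicate 2. None was called in the main edgeR fit, 9 had an unadjusted p under 0.05 and DESeq2 called 1, where all genes gave 12.7% and 1.38%. A replicate term in the edgeR fit gave 6 calls (7.83% of all genes), and GC and length offsets gave 4 (3.65%). The 43 genes of G2/M and mitosis were closer to 0, with a median of -0.02, which was 0.05 without replicate 1 of YB-0158; 41 were within 1.5-fold. Genes of cholesterol synthesis, which were below DMSO with ICG-001 (median -0.86) and YB-0158 (median -0.89), differed between them by a median of -0.05, with 25 of 26 within 1.5-fold. Without replicate 1 of YB-0158 that median was -0.0052.

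**Figure D4:**
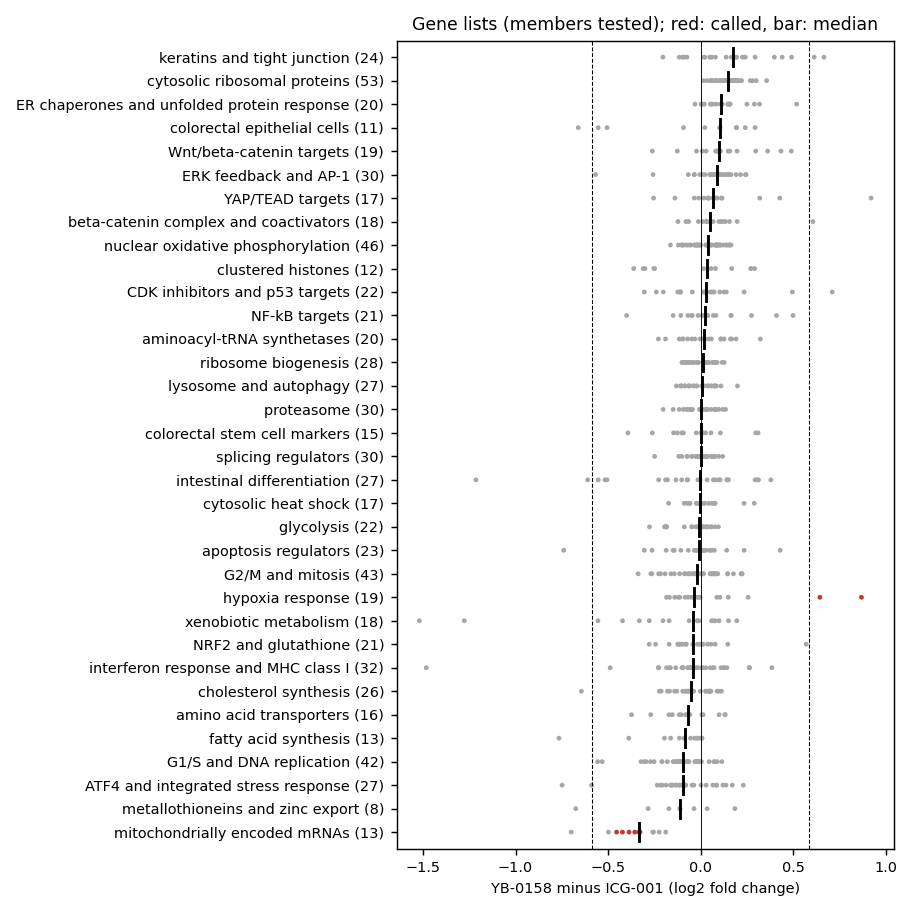
Each point is the YB-0158 minus ICG-001 log2 fold change of 1 tested gene, arranged by list, with the number tested in brackets, called genes in red and a bar at the list's median; dashed lines mark 1.5-fold. Called genes appear in 2 lists, the mitochondrial mRNAs (median -0.33) and the hypoxia response, and the 53 ribosomal protein genes lie to the right of 0.

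The genes tied to the known targets of ICG-001 were at like levels with both compounds. KHDRBS1 stood at 206 and 222 CPM with ICG-001 and 218 and 230 CPM with YB-0158 (0.07, interval -0.06 to 0.19). CREBBP stood at 116 and 104 CPM against 128 and 117 CPM (0.16, interval -0.01 to 0.32), and its paralog EP300 at 77.5 and 74.4 CPM against 76.4 and 74.2 CPM (-0.01, interval -0.14 to 0.12). CTNNB1, which encodes beta-catenin, stood at 244 and 255 CPM against 257 and 260 CPM (0.05, interval -0.06 to 0.16). None of these was called, and each interval lies within 1.5-fold.

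Of Wnt targets, 15 of 19 tested had an interval within 1.5-fold, and of colorectal stem cell markers 12 of 15, against 70.7% of all genes. MYC, a beta-catenin target that drives growth, stood at 191 and 169 CPM with ICG-001 and 194 and 194 CPM with YB-0158 (0.11, interval -0.05 to 0.26). BIRC5, the apoptosis inhibitor survivin, stood at 46.7 and 50.6 CPM against 45.4 and 50.4 CPM (-0.02, interval -0.19 to 0.14), below the 106 and 109 CPM of DMSO with both. LGR5, the R-spondin receptor of intestinal stem cells, stood at 6.46 and 7.19 CPM against 5.90 and 5.46 CPM (-0.26, interval -0.53 to 0.01). CD44, the hyaluronan receptor, differed by -0.13 (interval -0.24 to -0.01) and PROM1 (CD133) by 0.01 (interval -0.13 to 0.15). Across the Wnt/beta-catenin target list, 16 of 19 tested genes lay above 0 (48.3% of all genes did), with a median of 0.10, which was 0.06 with offsets for GC content and length. None was called in the main edgeR fit, 6 had an unadjusted p under 0.05 and DESeq2 called 1, where all genes gave 12.7% and 1.38%. A replicate term in the edgeR fit gave 3 calls (7.83% of all genes), and GC and length offsets gave 1 (3.65%).

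To ask how the compounds compared on genes picked without their own libraries, genes were picked by CWP232228 against DMSO, which uses the other 4 libraries. That comparison called 4144 of 15550 genes (26.6%), 1820 higher (11.7%) and 2324 lower (14.9%). Of the 1816 higher genes tested in both fits, 86.0% had a YB-0158 minus ICG-001 interval within 1.5-fold, and of the 2295 lower genes 89.5%, against 75.7% of the 15380 genes tested in both. Of these, 11 (0.606%) and 8 (0.349%) were called, against 0.208% of all genes tested in both. The share within 1.5-fold depends on level and was 87.8% in the fit of genes with a mean of at least 1 CPM. The 86.0% and 89.5% therefore do not show closer agreement in these sets. The median size of the difference was 0.11 in the higher set, 0.08 in the lower set and 0.10 over all genes tested in both.

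Small as they were, the differences leaned opposite ways in these sets. Genes higher with CWP232228 had a median of -0.08, and 25.4% of them lay above 0. Genes lower with it had a median of 0.06, and 70.4% lay above 0, where all genes had a median of -0.01. For genes that moved by at least 1 on the log2 scale with CWP232228, the medians were -0.12 for the 443 higher and 0.15 for the 244 lower. Relative to DMSO, the higher set had medians of 0.76 with ICG-001 and 0.69 with YB-0158, and the lower set -0.64 and -0.56. These last comparisons share the DMSO libraries with the choice of genes.

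The lean had the same sign in each pairing of 1 YB-0158 with 1 ICG-001 library, from -0.14 to -0.01 for the higher set and from 0.02 to 0.10 for the lower set. The sets differed in GC content, with medians of 43.4% and 59.5%, and with offsets for GC content and length the medians were -0.04 and 0.02. Leaving out libraries gave medians from -0.12 to -0.05 and from 0.02 to 0.10. The choice of genes itself depended on single libraries, since CWP232228 against DMSO called 517 and 366 genes without its replicate 1 or 2 and 8248 without replicate 1 of DMSO.

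**Figure D5:**
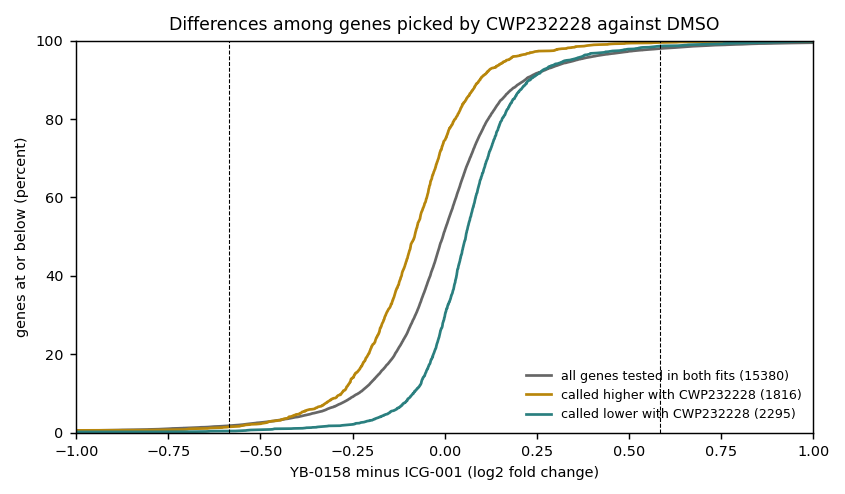
The curves give the percent of genes at or below each YB-0158 minus ICG-001 log2 fold change, for all 15380 genes tested in both fits and for the 1816 and 2295 genes called higher or lower with CWP232228 against DMSO. The higher set is shifted to the left (median -0.08) and the lower set to the right (median 0.06), and nearly all of each lies between the dashed lines at 1.5-fold.

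Among genes that moved by at least 1 with CWP232228, fewer intervals lay within 1.5-fold, 59.8% in the higher set and 34.4% in the lower set, against 75.7% of all genes. The share called was 2.03% and 1.64%, against 0.208%. Of the genes that rose most, ULBP1, a stress ligand for the NKG2D receptor, stood at 26.8 and 27.9 CPM with ICG-001 and 24.7 and 25.2 CPM with YB-0158, from 1.78 and 0.925 CPM with DMSO (-0.13, interval -0.29 to 0.02). BEST1, a chloride channel, stood at 16 and 15.2 CPM against 16.1 and 14.6 CPM, from 0.872 and 0.640 CPM (-0.02, interval -0.22 to 0.18). UNC5B, a netrin receptor, had the firmest difference of these, at 32.9 and 31.1 CPM against 24.3 and 25.1 CPM from 0.628 and 0.925 CPM. It was -0.37 (interval -0.54 to -0.21) and was not called (adjusted p = 0.0999, edgeR). EIF4EP2, a pseudogene at 0 in both DMSO libraries, shares sequence with its parent gene and is uncertain (-0.43, interval -2.10 to 1.23).

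Among the genes that fell most with CWP232228, NDUFA4L2, a hypoxia-induced mitochondrial protein, stood at 4.43 and 3.81 CPM with ICG-001 and 3.83 and 3.65 CPM with YB-0158, from 27.1 and 61.5 CPM. NDRG1, a stress-responsive differentiation gene, differed by -0.08 (interval -0.50 to 0.33), and SLC29A4, a monoamine transporter, by 0.12 (interval -0.16 to 0.40). FABP1, the liver and intestinal fatty acid-binding protein, was the widest gap, at 1.66 and 1.79 CPM against 0.989 and 0.459 CPM, from 11.9 and 28.3 CPM. Its difference of -1.21 (interval -1.97 to -0.46) was not called (adjusted p = 0.209, edgeR), and neither was that of MIR210HG, the host RNA of a hypoxia-induced microRNA (-0.38, interval -1.23 to 0.47).

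Transcript usage, the share of a gene's reads assigned to each of its transcripts, was tested as well. Of 11369 genes with several transcripts, 292 (2.57%) were called by edgeR's diffSpliceDGE with Benjamini-Hochberg adjustment, and 846 had an unadjusted p under 0.05. In 287 of the 292, a transcript was at 0 in both libraries of 1 compound only, the form a shift in Salmon's assignment of shared reads can also take, and which of these applies was not tested. How often this form occurs among all genes tested is not given, so it cannot be read as a feature of the calls. In 124 called genes a share moved by at least 10 percentage points, as it did in 2114 of all genes tested.

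NEPRO, a nucleolar protein, assigned 15.5% and 19.7% of its reads to ENST00000472637 with ICG-001 and 0 with YB-0158 (adjusted p = 8.08e-09, edgeR's diffSpliceDGE). BPTF, a chromatin remodelling factor, assigned 7.27% and 3.35% to ENST00000644067 with ICG-001 and 21.1% and 17.8% with YB-0158 (adjusted p = 1.17e-07). RDH13, a retinol dehydrogenase, assigned 0 to ENST00000415061 with ICG-001 and 16.8% and 23.3% with YB-0158 (adjusted p = 1.94e-07). LRP8 was the single gene called for both level and usage. KHDRBS1, an RNA-binding regulator of splicing, was not called for its own usage (adjusted p = 1). CD44, a classical splicing substrate of it, was at the threshold (adjusted p = 0.0498), with its largest share moved by 4.31 percentage points. EP300 was called (adjusted p = 0.0343), with a largest move of 1.52 points.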

How the data were processed

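RNA from 8 HT29 libraries was sequenced on an Illumina NextSeq from TruSeq RNA v2 libraries, per the labels' protocols; the kit does not mark strand. Tools listed in the submitters' processing notes are Salmon 1.3.0, fastp and DESeq2, with the build GRCh38. Per the file headers, the deposited transcript files hold Salmon's estimated counts, with TPM and effective length, and the authors' deposited tables hold FPKM per library, mean signal, log2 fold changes and p-values. TPM and the authors' deposited fold changes and p-values entered no test. The transcriptome release is not given in the sources used here.

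Of 228754 transcripts, 204677 (89.5%) matched GENCODE release 29; their estimated counts were summed per gene and rounded. Unmatched transcripts took 1.54% to 1.85% of the 29071547 to 58489118 reads of a library. A count of 0 allows up to 3 counts, or 0.052 to 0.105 CPM. This covers counting error only.

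Genes were tested with edgeR 4.0.16 under R 4.3.3 (TMM, filterByExpr, robust quasi-likelihood test, Benjamini-Hochberg), in the 4 libraries of a contrast with 2 residual degrees of freedom. Intervals (95%) come from the F statistic. Levels are CPM with TMM factors over 8 libraries, except cell markers, which are plain CPM. No list was tested: 37 lists (859 genes) are described by counts and medians. Genes named were the 12 largest rises and falls among calls with a mean of at least 2 log2 CPM, an ordinary symbol and no overlap, 3 members of lists with calls, 2 of each of 4 lists with every member within 1.5-fold (the first 4 by name of 9 tied), the 5 largest rises and falls with CWP232228, 3 genes for usage, and 15 genes of the compounds' known biology. The scripts were tested on simulated data. Members and lists were chosen with earlier results of these data known. Results for some genes are not reported here.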

Additional observations from a re-analysis of the deposited data

How the results depend on the processing

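Calls are limited by 2 libraries a group, and a leave-one-out fit assumes that the lone library varies like the other group. The 11648 intervals within 1.5-fold ranged from 9558 to 11873 over all alternatives, which tested from 13368 to 28586 genes. As a share of the genes tested they were 70.7% in the main fit. That share ranged from 41.5% with no count filter to 87.8% with a mean of at least 1 CPM. No named gene that was called changed direction, which the lack of overlap between groups all but fixed in advance. The 34 calls became 227 with DESeq2 (136 higher, 91 lower, 1 by at least 1 on the log2 scale), which gave no adjusted p for 10 of the 34 and called the other 24. They became 806 with no count filter (335 higher, 471 lower, 125 by at least 1, from 8) and 73 with a mean of at least 1 CPM (43 higher, 30 lower). In a fit of all 8 libraries there was 1 call (1 higher, 0 lower, 0 by at least 1; 918 at unadjusted p under 0.05). The 6 compound libraries gave 39 calls, 26 higher and 4 by at least 1, and kept 21 of the 34. Offsets for GC content and length gave 602 (341 higher, 261 lower, 22 by at least 1). Offsets for effective length gave 0 (0 higher, 0 lower, 0 by at least 1), with 1425 at unadjusted p under 0.05. In that setting the median SE was 0.13 against 0.09; the cause of these shifts was not tested.

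Leaving out 1 library gave 33 to 553 calls (18 to 159 higher, 15 to 394 lower, 13 to 103 by at least 1). Without replicate 1 of ICG-001, 16 of the 34 were kept. For CWP232228 against DMSO the range was 366 to 8248, from 4144. For usage it was 208 to 303, from 292, and all 8 libraries gave 106. Effective length offsets moved EP300 to 0.33 and NDRG1 to 0.20.

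The labels do not say that replicate numbers pair the samples. Replicate differences of the compounds correlated across genes (0.52), with only 2 pairs. A replicate block gave 1291 calls (563 higher, 728 lower, 40 by at least 1), and with GC and length offsets 1586 (836 higher, 750 lower, 43 by at least 1); these kept 34 and 33 of the 34. With the block, CWP232228 against DMSO gave 4841 calls and usage 198.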

Other observations

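Some genes lay at or just above the threshold and stand in no comparison above; they were chosen after their values were seen, and none was called. Genes of epithelial keratins and junctions had the highest median of the 34 lists, 0.17, with 19 of 24 above 0 (48.3% of all genes), 12 at unadjusted p under 0.05 (12.7%) and 6 called by DESeq2 (1.38%). KRT17, a keratin of stressed and basal epithelium, stood at 26.6 and 22.6 CPM with ICG-001 and 36.5 and 39.1 CPM with YB-0158 (0.61, interval 0.40 to 0.82, adjusted p = 0.0543, edgeR). SCEL, sciellin of the cornified envelope, stood at 39.8 and 44.9 CPM against 57.2 and 61.6 CPM (0.49, interval 0.32 to 0.66, adjusted p = 0.0536).

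Of 20 tested genes of endoplasmic reticulum chaperones and the unfolded protein response, 19 lay above 0 (48.3% of all genes), with a median of 0.11 and 4 called by DESeq2 (1.38%). The median was 0.05 without replicate 2 of YB-0158. HSPA5, the chaperone BiP, stood at 531 and 549 CPM with ICG-001 and 643 and 677 CPM with YB-0158 (0.29, interval 0.18 to 0.40, adjusted p = 0.0659, edgeR). PDIA4, a disulfide isomerase, stood at 95 and 80.7 CPM against 129 and 123 CPM (0.52, interval 0.32 to 0.71, adjusted p = 0.0706).

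The aryl hydrocarbon receptor targets CYP1A1 and CYP1B1 leaned the other way. The list of xenobiotic metabolism, which holds CYP1A1, had a median of only -0.04 over 18 tested genes, with 6 above 0 and 12 below. None was called in the main edgeR fit, 7 had an unadjusted p under 0.05 (12.7% of all genes) and DESeq2 called 3 (1.38%). A replicate term in the edgeR fit gave 5 calls (7.83% of all genes), and GC and length offsets gave 3 (3.65%). The list's median ranged from -0.09 to 0.00 over the alternatives. CYP1A1 stood at 2.43 and 1.81 CPM with ICG-001 and 0.590 and 0.918 CPM with YB-0158 (-1.52, interval -2.15 to -0.89, adjusted p = 0.0837, edgeR). CYP1B1 stood at 68.6 and 61.0 CPM against 40.3 and 48.3 CPM (-0.56, interval -0.79 to -0.32, adjusted p = 0.109).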
